A study of Homo sapiens with 18 samples.

Results

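The G1 phase machinery was followed through 10 of its genes: the D cyclins CCND1 and CCND3, the E cyclins CCNE1 and CCNE2, the kinases CDK2, CDK4 and CDK6, the inhibitors CDKN1B and CDKN2C, and the phosphatase CDC25A. They were chosen by symbol, as 10 of the 60622 genes in the count tables, and all 10 had enough counts to be tested in every comparison. RNA was sequenced from H1299 cells, which stem from a human lung cancer (non-small cell) and are known for the loss of their own p53. The cells of the induced groups made, after doxycycline, wild-type p53-FKBP12F36V-HA, that is p53 joined to the FKBP12F36V domain and an HA epitope. AceTAGs are heterobifunctional: one end is meant to bind FKBP12F36V and the other a lysine acetyltransferase. The design asks how AceTAGp300CBP-1 (here the p300/CBP compound) and AceTAGPCAFGCN5-4 (the PCAF/GCN5 compound) change the transcriptome. Induced and non-induced cells were each kept for 24 h with either of these compounds or with DMSO, which gives 6 groups of 3 libraries. All groups carry the genotype label wt. Non-induced samples are labelled as H1299 with no mention of the construct, and the labels do not say whether these cells received doxycycline, so an effect of induction cannot be told apart from an effect of the drug. No dose is given, nor whether the line is 1 clone, and nothing says that replicates were separate cultures, so p-values measure only the spread between these libraries.

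In early G1 the D cyclins bind CDK4 and CDK6, and in late G1 the E cyclins bind CDK2. These kinases phosphorylate the retinoblastoma protein, which then releases the E2F factors that drive genes of DNA synthesis, E cyclins and CDC25A among them. CDC25A removes inhibitory phosphates from CDK2. The INK4 inhibitor p18, the product of CDKN2C, binds CDK4 and CDK6, and the inhibitor p27, the product of CDKN1B, acts on cyclin-CDK2 complexes. The p53 target CDKN1A encodes p21, another inhibitor of CDK2. Bulk RNA holds cells in all phases, so fewer cells in a phase and less RNA per cell cannot be told apart.

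The E2F consensus was searched for in RefSeq promoter windows (GRCh38.p14) of 250 bases before to 50 after a start, because E cyclins and CDC25A are known E2F targets. Its letters are TTTCCCGC, TTTCGCGC, TTTGCCGC or TTTGGCGC on either strand, and 1164 of 35116 windows (3.31%) hold it. Of the 7 members with an entry, with 12 windows in all, only CDC25A held a match, once, with its first base 44 bases before the start. CCND1, CCNE2 and CDK2 were not in the table. The 150 bases before the start are shown for CDC25A (chr3:48188418-48188567, minus strand), for CCNE1 (chr19:29811841-29811990, plus strand) and for the outermost start of CDKN2C (chr1:50960595-50960744, plus strand), with the match in capitals. They set the window with the match beside those of an E cyclin and an inhibitor without it.
CDC25A: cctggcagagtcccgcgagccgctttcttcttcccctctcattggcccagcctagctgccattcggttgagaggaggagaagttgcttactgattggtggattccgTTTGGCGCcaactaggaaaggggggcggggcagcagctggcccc
CCNE1: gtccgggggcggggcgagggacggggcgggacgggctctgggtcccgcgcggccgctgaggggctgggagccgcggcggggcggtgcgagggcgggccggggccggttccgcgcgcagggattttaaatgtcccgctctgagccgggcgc
CDKN2C: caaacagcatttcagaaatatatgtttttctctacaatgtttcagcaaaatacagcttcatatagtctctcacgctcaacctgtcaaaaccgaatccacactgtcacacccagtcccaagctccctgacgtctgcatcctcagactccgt
The CHR element (TTTGAA, in 15.16% of windows) and a single p53 decamer, by its consensus (6.63%), had no match in any of the 12 windows. A match or its absence describes these letters only.

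Depth ran from 9.1 to 29.2 M counts per library, the third non-induced DMSO library being the shallowest. The third induced DMSO library stood apart from its partners, with mitochondrially encoded transcripts at 0.714% of counts against 1.84% and 2.14%. Such transcripts were also lower in the first non-induced PCAF/GCN5 library, at 1.32% against 2.26% and 2.11%. In the third induced PCAF/GCN5 library they were at 1.39% against 2.45% and 1.88%. Results that rest on the third induced DMSO library are given with and without it, or with the range over fits that each left out 1 library. CDKN1A read 91.3, 91.8 and 85.7 CPM (counts over the library total in M) in non-induced DMSO libraries and 380.4, 332 and 343 CPM in induced ones. Of the epithelial markers, KRT8, KRT18 and EPCAM summed to 222 to 404 CPM, KRT18 being the highest (up to 315 CPM), while EPCAM was at most 0.120 CPM and so near absent. The mesenchymal filament gene VIM stood far higher, at 2366 to 3989 CPM. The summed level of 4 lung lineage markers reached 0.86 CPM, of 5 fibroblast markers 2.71 CPM, of 5 immune markers 0.694 CPM with PTPRC at 0, and of 3 endothelial markers 0.706 CPM.

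CCND1 was by far the most abundant member. In non-induced DMSO cells it stood at 164 ± 4.91 CPM per kilobase of exon (SD, n = 3), a scale that allows genes to be compared. CDKN2C (40.3 ± 0.426), CDK4 (39.7 ± 1.62) and CDKN1B (36.1 ± 0.658) followed on the same scale, then CDK2 (23.7 ± 1.83), CDK6 (17.8 ± 0.618), CCND3 (15.6 ± 0.563) and CDC25A (14.99 ± 0.682). The E cyclins were lowest, CCNE2 at 11.1 ± 1.13 and CCNE1 at 5.10 ± 0.709. With induction and the p300/CBP compound, CCND1 was still first at 78.1 ± 3.53 CPM per kilobase, and CCNE2, at 3.60 ± 0.259, had moved below CCNE1 at 4.08 ± 0.0306.

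**Figure D1:**
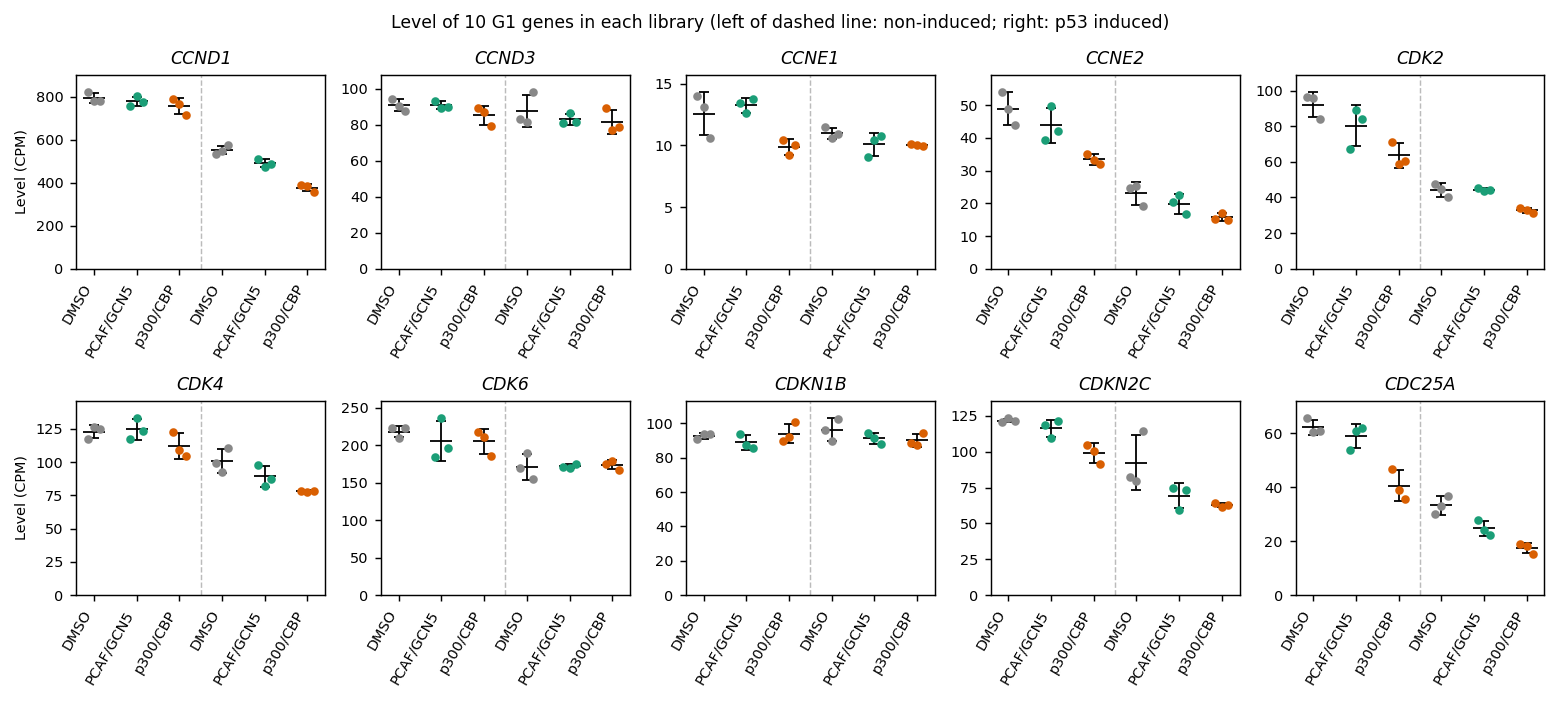
Level of each of the 10 genes in each library (y axis, CPM, from 0; 1 panel per gene), with non-induced groups left and induced groups right of the dashed line; points are libraries, bars the mean ± SD of 3. CCND1 falls in steps from 552 ± 19.8 to 377 ± 17.1 CPM across the induced groups, while CDKN1B and CCND3 lie at like heights in all 6.

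The files place the genes on chromosomes 11 (CCND1, ENSG00000110092, chr11:69641087-69654474), 6 (CCND3, ENSG00000112576, chr6:41934933-42050357), 19 (CCNE1, ENSG00000105173, chr19:29811991-29824312), 8 (CCNE2, ENSG00000175305, chr8:94879770-94896678), 12 (CDK2, ENSG00000123374, chr12:55966781-55972789; CDK4, ENSG00000135446, chr12:57747727-57756013; CDKN1B, ENSG00000111276, chr12:12715058-12722369), 7 (CDK6, ENSG00000105810, chr7:92604921-92836594), 1 (CDKN2C, ENSG00000123080, chr1:50960745-50974634) and 3 (CDC25A, ENSG00000164045, chr3:48157146-48188417), on GRCh38. Values are sums over each gene's exons. Exons of CCNE2 share 1629 bases with INTS8, those of CDK4 share 1369 with TSPAN31 and those of CCND1 share 497 with LTO1, each on the opposite strand. Those of CDK2 share 565 with AC025162.1 (0.0102 CPM over all libraries) and 89 with PMEL (1.111 CPM), also on the opposite strand. Likewise CDK6 shares 81 with AC002454.1 (1.473 CPM), CCND3 24 with AL513008.1 (0 CPM) and CCNE2 4 with AC087752.4 (0.0947 CPM). The libraries mark strand, but whether counting used it is not given, so reads of these pairs may be shared. INTS8 is the more abundant of its pair (136.4 against 30.81 CPM over all libraries), whereas TSPAN31 (30.6 against 104.5 CPM) and LTO1 (15.26 against 625.3 CPM) are the less abundant.

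The comparison of induced with non-induced cells in DMSO asks what the tagged p53 does without a compound. Of the members 6 fell, namely CCND1, CCNE2, CDK2, CDK4, CDK6 and CDC25A, and 0 rose. Among all tested genes 7.77% fell and 6.01% rose. The E cyclin CCNE2 and its kinase CDK2 had the largest falls, and both inhibitors, CCND3 and CCNE1 were not called. The members' median log2 fold change was -0.40, against 0.01 over all genes tested.

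Among the genes of the cyclin D kinases, CCND1 read 822, 780.2 and 781 CPM in non-induced and 536, 546 and 574 CPM in induced libraries. The groups lie well apart, and the change was -0.55 ± 0.06 (log2 fold change ± SE, adjusted p = 0.00066, edgeR quasi-likelihood test with Benjamini-Hochberg adjustment, as for every p below). CDK4 read 117, 126 and 125 CPM without and 99.0, 92.5 and 110.3 CPM with induction. All induced libraries were lower, but the third came close (-0.31 ± 0.08, adjusted p = 0.037). TSPAN31, whose exons overlap those of CDK4, rose (0.63 ± 0.08, adjusted p = 0.00142). CDK6 read 223, 209.6 and 223 CPM against 170.3, 189 and 155 CPM, also without overlap (-0.37 ± 0.07, adjusted p = 0.0112). CCND3, the other D cyclin expressed in these cells, overlapped between groups, at 94.3, 90.2 and 87.8 against 83.3, 81.4 and 98.0 CPM (-0.08 ± 0.09, adjusted p = 0.61).

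CCNE2 read 54.0, 48.9 and 44.1 CPM in non-induced and 24.6, 25.3 and 19.1 CPM in induced libraries (-1.12 ± 0.12, adjusted p = 0.000362). CDK2, its kinase, read 96.5, 95.7 and 83.8 against 47.6, 44.8 and 40.2 CPM (-1.09 ± 0.08, adjusted p = 6.25e-05). For both genes every induced library lay far below every non-induced one. INTS8, the overlapping neighbour of CCNE2, was at 0.04 ± 0.06 (adjusted p = 0.739). CCNE1, the rarer E cyclin, read 13.96, 13.1 and 10.6 against 11.4, 10.6 and 10.9 CPM, and its groups overlapped (-0.24 ± 0.12, adjusted p = 0.226). CDC25A, which activates CDK2, read 65.4, 60.3 and 60.7 against 29.9, 32.8 and 36.9 CPM, again with a wide gap (-0.93 ± 0.10, adjusted p = 0.000324).

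The inhibitors did not move alike. CDKN1B read 90.7, 93.8 and 93.5 CPM without and 96.4, 89.7 and 103 CPM with induction (0.03 ± 0.07, adjusted p = 0.829), and the groups overlapped. CDKN2C read 121, 123 and 121 against 82.7, 79.8 and 115 CPM. All induced libraries were lower, yet the third, the library that stood apart, lay near the non-induced ones, and the change of -0.42 ± 0.13 was not called (adjusted p = 0.0701). Without that library it was -0.62 (adjusted p = 4.07e-16), and DESeq2 on all libraries called it (adjusted p = 0.0190). Without it CCND3 was also called (-0.18, adjusted p = 0.00260), but that fit called 5001 genes, against 2075 with all libraries. The calls of CCND1, CCNE2, CDK2 and CDC25A were kept whichever library was left out, and 4 to 8 members were called among 869 to 5001 genes. That of CDK4 was lost without any 1 of the first and second induced and the 3 non-induced libraries (adjusted p from 0.0872 to 0.166), and that of CDK6 without the first (0.0697) or the third (0.0687) non-induced library.

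The same comparison can be made under each compound. With the p300/CBP compound 7 members fell on induction and 0 rose, where 16.2% of all tested genes fell and 16.4% rose. With the PCAF/GCN5 compound 8 fell and 0 rose, where 12.5% fell and 11.4% rose. CDKN2C fell in both, by 0.67 ± 0.06 (adjusted p = 1.22e-07) and by 0.79 ± 0.09 (adjusted p = 1.08e-05). CCND1 fell by 1.02 ± 0.05 with the p300/CBP compound (adjusted p = 1.06e-10) and by 0.70 ± 0.07 with the PCAF/GCN5 compound (adjusted p = 2.69e-06). CDC25A fell by 1.23 ± 0.11 (adjusted p = 5.15e-08) and by 1.29 ± 0.10 (adjusted p = 2.78e-07). CCNE2, at -1.09 ± 0.08 and -1.18 ± 0.12, and CDK2, at -0.97 ± 0.08 and -0.89 ± 0.10, gave values near those in DMSO. CDK4 fell by 0.54 ± 0.06 and 0.52 ± 0.08, and CDK6 by 0.25 ± 0.06 and 0.29 ± 0.08.

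CCNE1 fell on induction with the PCAF/GCN5 compound (-0.44 ± 0.11, adjusted p = 0.0112). Its value was 0.01 ± 0.11 with the p300/CBP compound (adjusted p = 0.961), and the differences from its value in DMSO were not called (-0.21 ± 0.16, adjusted p = 0.731, and 0.26 ± 0.15, adjusted p = 0.59). The call was lost without the first induced (adjusted p = 0.0565) or the third non-induced library (0.0549) of the PCAF/GCN5 groups. That of CDK6 with the same compound was lost without the third induced (0.0639) or the second non-induced library (-0.18, 0.136). CCND3 gave -0.08 ± 0.07 and -0.17 ± 0.06 (adjusted p = 0.416 and 0.0746), and was called with the p300/CBP compound when the third non-induced library was left out (-0.14, 0.0424). CDKN1B gave -0.07 ± 0.05 and 0.00 ± 0.07. The members' median was -0.60 with the p300/CBP compound and -0.61 with the PCAF/GCN5 compound, against 0.01 and 0.00 over all genes.

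**Figure D2:**
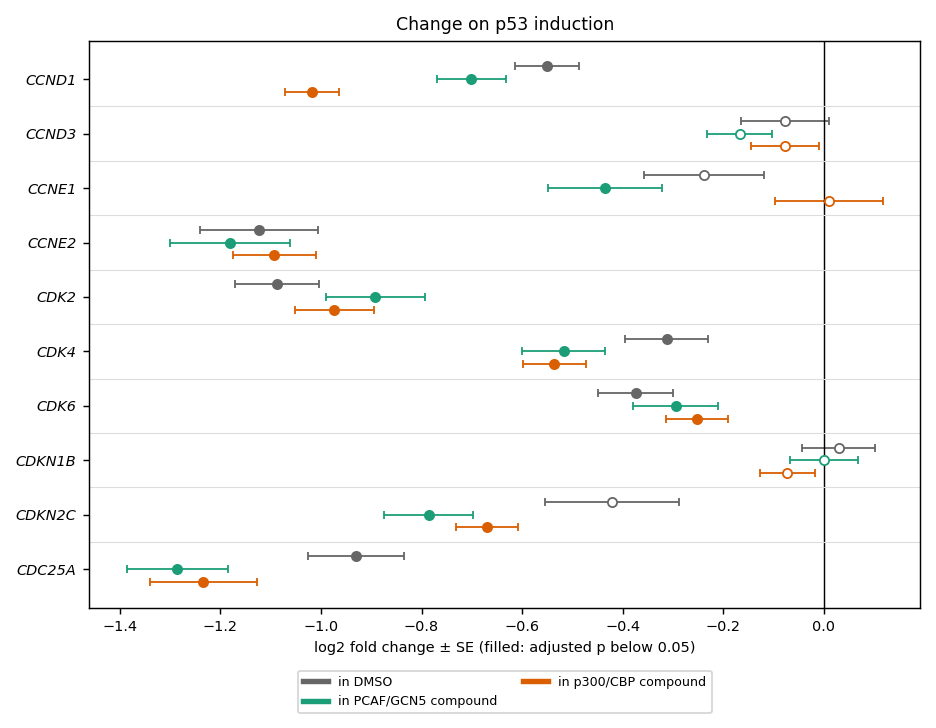
Log2 fold change ± SE of induced against non-induced cells (x axis) for each gene (y axis), in DMSO (grey), the PCAF/GCN5 compound (green) and the p300/CBP compound (orange); filled points have an adjusted p below 0.05. In DMSO CCNE2 and CDK2 lie farthest to the left, at -1.12 and -1.09, with each compound CDC25A does, at -1.23 and -1.29, and CDKN1B lies at 0 within its error in all but the p300/CBP groups, where it is at -0.07 ± 0.05.

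The p300/CBP compound was also given to non-induced cells, which asks what it does without the induced fusion. There 5 members fell, CCNE1, CCNE2, CDK2, CDKN2C and CDC25A, and 0 rose, where 6.46% of all genes fell and 3.43% rose. These are genes of the late G1 kinase and its activator plus 1 inhibitor, and CCND1 was not among them. The members' median was -0.23, against 0.00 over all genes.

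CDC25A read 46.8, 38.9 and 35.7 CPM with the p300/CBP compound in non-induced cells, below all the DMSO libraries (-0.63 ± 0.09, adjusted p = 0.000153). CCNE2 read 35.01, 33.3 and 31.9 CPM (-0.58 ± 0.08, adjusted p = 0.000117) and CDK2 read 71.4, 58.9 and 60.5 CPM (-0.56 ± 0.07, adjusted p = 0.00015). Neither group overlapped its DMSO group. CDKN2C read 105, 101 and 91.5 CPM, a smaller step with no overlap (-0.31 ± 0.06, adjusted p = 0.00233). CCNE1 read 10.4, 9.17 and 10.0 CPM, just under the lowest DMSO library at 10.6 CPM (-0.40 ± 0.11, adjusted p = 0.0302). The CCNE1 call was lost with DESeq2 (adjusted p = 0.0657) and without the first (0.197) or second (0.150) DMSO or the second compound library (0.132). That of CDKN2C was lost when all 6 groups were fitted together (0.115).

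CCND1 read 788, 766 and 717 CPM with the compound, overlapping the DMSO libraries (-0.09 ± 0.05, adjusted p = 0.3). CDK4, at 123, 109 and 104 CPM, also overlapped (-0.15 ± 0.06, adjusted p = 0.165), and was called when the first compound library was left out (-0.23, 0.00802). CCND3 (-0.11 ± 0.06), CDK6 (-0.10 ± 0.06) and CDKN1B (0.00 ± 0.05) were not called.

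The same compound in induced cells asks what it does with the tagged p53 present. There 6 members fell, CCND1, CCNE2, CDK2, CDK4, CDKN2C and CDC25A, and 0 rose, where 3.04% of all genes fell and 2.94% rose. The median over the members was -0.41, against 0.00 over all genes.

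CDC25A had the largest fall, from 29.9, 32.8 and 36.9 CPM with DMSO to 18.9, 18.2 and 15.2 CPM with the compound. The gap between the groups is wide (-0.94 ± 0.12, adjusted p = 0.00276). CCND1 went from 536, 546 and 574 to 390.1, 384 and 358 CPM, also far apart (-0.56 ± 0.07, adjusted p = 0.00211). CDK4 read 78.5, 77.4 and 78.2 CPM, all below the lowest DMSO library at 92.5 CPM (-0.38 ± 0.08, adjusted p = 0.0274). CDK6, the other partner of D cyclins, stood at 175, 179 and 168 CPM, within the range of its DMSO group (0.01 ± 0.08, adjusted p = 0.942).

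CCNE2 read 15.3, 17.1 and 15.1 CPM, all below the DMSO libraries (-0.55 ± 0.12, adjusted p = 0.0323), and CDK2 read 34.01, 32.98 and 31.3 CPM, also apart (-0.44 ± 0.08, adjusted p = 0.0172). CDKN2C read 64.2, 61.7 and 62.5 CPM, below all DMSO libraries (-0.57 ± 0.13, adjusted p = 0.0415). CCNE1, at 10.1, 10.0 and 9.97 CPM, was just under its DMSO group of 11.4, 10.6 and 10.9 CPM and was not called (-0.14 ± 0.10, adjusted p = 0.424). CCND3 (-0.11 ± 0.10) and CDKN1B (-0.11 ± 0.07) overlapped between groups.

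The calls of CCND1 and CDC25A were kept in every alternative run. Leaving out any 1 of the 3 compound libraries left only these 2 members called, as the adjusted p of CCNE2, CDK2, CDK4 and CDKN2C rose to between 0.0745 and 0.189 while their values stayed between -0.37 and -0.61. Without the first induced DMSO library 3 members were called, with CCNE2, CDK2 and CDK4 lost (0.0968, 0.0688 and 0.0666), and without the second CCNE2 was lost (0.0766). Without the third, which stood apart, all 6 were called, in a fit that called 3234 genes. With all libraries 898 genes were called, and leaving out 1 compound library gave 263 to 335. Over all fits that left out 1 library, the value of CDKN2C ran from -0.66 to -0.37.

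**Figure D3:**
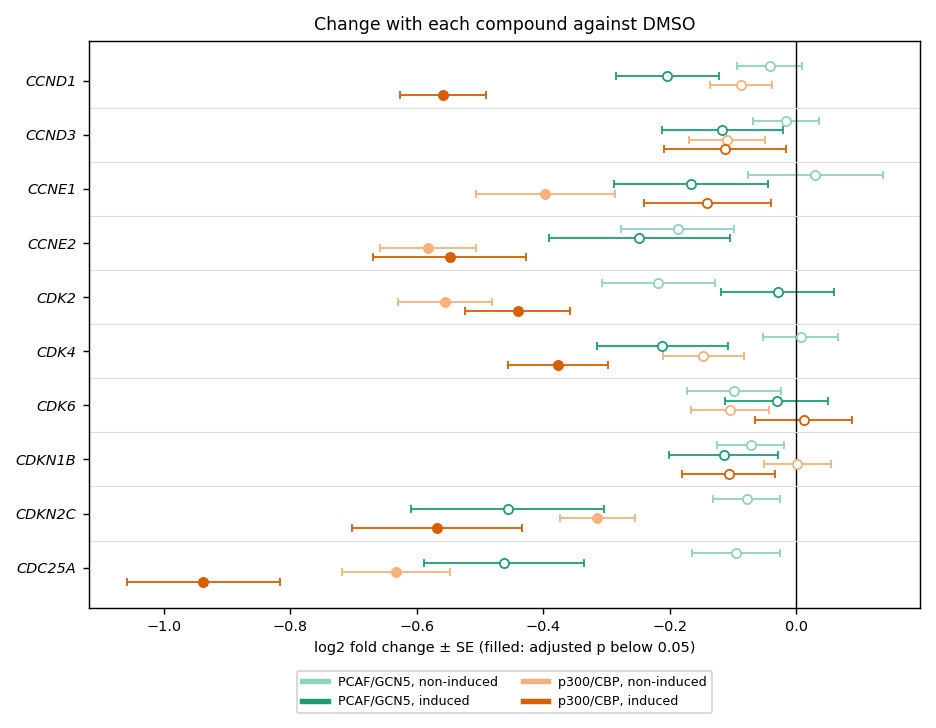
Log2 fold change ± SE of each compound against DMSO (x axis) for each gene (y axis), in non-induced (pale) and induced (dark) cells, for the PCAF/GCN5 (green) and the p300/CBP compound (orange); filled points have an adjusted p below 0.05. Filled points occur for the p300/CBP compound only, and the lowest value is that of CDC25A in induced cells at -0.94.

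Whether the response to the p300/CBP compound differed between induced and non-induced cells was tested as an interaction over both DMSO and both compound groups. Of the members, CCND1 alone was called, with a lower response in induced cells (-0.46 ± 0.09, adjusted p = 0.016). Among all genes 0.192% had a lower and 1.09% a higher response in induced cells. The response of CCND1 was -0.56 ± 0.07 in induced and -0.09 ± 0.05 in non-induced cells. Without the second non-induced library of the compound the difference was -0.45 and was no longer called (adjusted p = 0.0567).

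For the other 9 members a difference between states was not shown. The interval of the difference (95%) ran from -0.25 to 0.33 for CCNE2, from -0.12 to 0.37 for CDK2, from -0.62 to 0.03 for CDC25A, from -0.55 to 0.06 for CDKN2C and from -0.44 to 0.00 for CDK4. For CCNE1, called in non-induced cells alone, it ran from -0.04 to 0.55. A difference of -0.46, as seen for CCND1, lies within the intervals of CDC25A and CDKN2C and just outside that of CDK4. The members' median difference was -0.05, against 0.00 over all genes.

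**Figure D4:**
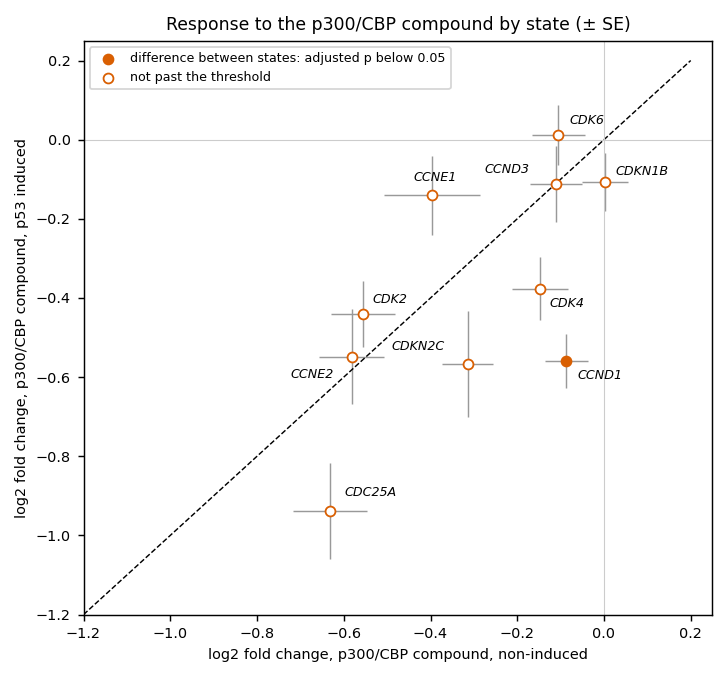
Log2 fold change ± SE with the p300/CBP compound in non-induced (x axis) and induced (y axis) cells for the 10 genes; the dashed line marks equal responses and the filled point a difference between states with an adjusted p below 0.05. CCND1, the filled point, lies below the line at -0.09 and -0.56, and CCNE2 and CDK2 lie near it.

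The PCAF/GCN5 compound gave no call among the members against DMSO. In induced cells 0 members were called by edgeR and 0 by DESeq2, and 3 had an unadjusted p below 0.05, all lower. Among all genes 0.338% rose and 0.00663% fell there by adjusted p, and 1530 of 15078 had an unadjusted p below 0.05. These 3 were CDC25A, at 27.8, 24.1 and 22.2 CPM and so below all DMSO libraries (-0.46 ± 0.13, adjusted p = 0.357), CDKN2C at 74.9, 59.1 and 73.4 CPM, also below them (-0.46 ± 0.15, adjusted p = 0.453), and CCND1 at 511, 475 and 489 CPM, likewise (-0.20 ± 0.08, adjusted p = 0.481). CDC25A and CDKN2C were called with no filter on low counts (adjusted p = 0.0208 and 0.00219) and in the fit of all 6 groups (0.0457 and 0.0362). Leaving out 1 library at a time, CDKN2C ran from -0.56 to -0.25, CDC25A from -0.56 to -0.36 and CCND1 from -0.24 to -0.16, and 0 members were called. All 10 members had values below 0, with a median of -0.18 against -0.01 over all genes, and CDK2 had the value nearest 0 along with CDK6 (both -0.03).

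In non-induced cells the PCAF/GCN5 compound again gave 0 calls among the members by edgeR and 0 by DESeq2, where 0.00662% of all genes rose and 0.0132% fell. An unadjusted p below 0.05 was found for 959 of the 15100 genes tested and for 1 member. That member was CDK2, at 67.5, 89.2 and 84.2 CPM, whose first library was low and whose groups overlapped (-0.22 ± 0.09, adjusted p = 0.779). CCNE2, at 39.4, 49.8 and 42.2 CPM, gave -0.19 ± 0.09 (adjusted p = 0.788). The values of the other 8 lay between -0.10 and 0.03, and the members' median was -0.08 against 0.00 over all genes.

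The interaction of the PCAF/GCN5 compound with induction gave 0 calls among the members by edgeR and 0 by DESeq2, and 2 unadjusted p below 0.05. Of all genes 0.0632% had a higher and 0.00632% a lower response in induced cells by adjusted p, and 1148 of 15813 had an unadjusted p below 0.05. The 2 were CDC25A (-0.36 ± 0.15, 95% interval -0.65 to -0.08, adjusted p = 0.658) and CDKN2C (-0.37 ± 0.17, -0.71 to -0.04, adjusted p = 0.658). Leaving out 1 library at a time, CDC25A ran from -0.47 to -0.26 and CDKN2C from -0.47 to -0.17.

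The compounds were compared with each other in each state, at the same time but at doses that the labels do not give, so a dose difference cannot be told apart from a compound difference. In induced cells 3 members were lower with the p300/CBP than with the PCAF/GCN5 compound and 0 were higher, where 2.25% of all genes were lower and 1.87% higher. CCND1 differed by -0.36 ± 0.06 (adjusted p = 0.000956), CDK2 by -0.42 ± 0.07 (adjusted p = 0.00154) and CDC25A by -0.49 ± 0.11 (adjusted p = 0.0149), and none of the 3 overlapped between groups. CDC25A was no longer called without the second (0.0599) or the third (0.134) p300/CBP or the first PCAF/GCN5 library (0.0693). CCNE2 was called without the third PCAF/GCN5 library (-0.43, 0.0335), and CDK4 and CDKN2C without the second (-0.24, 0.00964 and -0.22, 0.0125). For CDK6 the interval of the difference ran from -0.07 to 0.13, for CDKN1B from -0.11 to 0.11 and for CCND3 from -0.13 to 0.12.

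In non-induced cells 1 member was lower with the p300/CBP than with the PCAF/GCN5 compound and 0 were higher, where 0.932% of all genes were lower and 0.159% higher. It was CDC25A, at 46.8, 38.9 and 35.7 against 53.7, 60.9 and 61.9 CPM, without overlap (-0.54 ± 0.10, adjusted p = 0.0201). The call was lost without the second (0.178) or the third (0.0637) p300/CBP library and without the second (0.121) or the third (0.0795) PCAF/GCN5 library. CCNE2 (-0.39 ± 0.09, adjusted p = 0.0604) and CCNE1 (-0.42 ± 0.11, adjusted p = 0.079) were near the threshold, and CDK2 gave -0.33 ± 0.10 (adjusted p = 0.136). CCNE2 and CDK2 were called when the first library of either compound was left out, with values of -0.44 to -0.47, and CCNE2 was also called by DESeq2 (0.0133). For CCND1 the interval of the difference ran from -0.17 to 0.09. The comparisons with DMSO, with the other state and between compounds share libraries and are not independent.

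Across all 6 groups the members ordered the groups in different ways. CCND1 was high in all non-induced groups (794 ± 23.7, 779 ± 22.02 and 757 ± 36.7 CPM with DMSO, the PCAF/GCN5 and the p300/CBP compound), whose libraries overlap. Its induced groups stood lower, at 552 ± 19.8, 492 ± 17.9 and 377 ± 17.1 CPM, and none of them overlapped its neighbour. CDC25A ran in the same order, from 62.1 ± 2.83 to 17.5 ± 1.97 CPM, with overlap between the non-induced DMSO and PCAF/GCN5 groups and between the non-induced p300/CBP and induced DMSO groups. For CCNE2 the order was again the same, from 49.0 ± 4.96 to 15.8 ± 1.14 CPM. Neighbours overlapped among its 3 induced groups, while the non-induced p300/CBP group lay apart from the group above it and from the induced DMSO group below it.

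CDK2 differed in that induced DMSO (44.2 ± 3.71 CPM) and induced PCAF/GCN5 libraries (44.4 ± 0.691 CPM) overlapped, with the induced p300/CBP group apart below them at 32.8 ± 1.35 CPM. For CDK6 the neighbours were apart only between non-induced p300/CBP and induced p300/CBP libraries, with means of 205 to 218 CPM in non-induced and 172 to 174 CPM in induced groups. The second induced DMSO library, at 189 CPM, lay above the lowest non-induced library of each compound (185 and 186 CPM). CDK4 was apart from its neighbour only in the induced p300/CBP group, at 78.0 ± 0.592 CPM. CDKN2C was apart at 2 steps, below the non-induced PCAF/GCN5 group (116 ± 5.87 CPM) and below the induced DMSO group (92.3 ± 19.3 CPM). For CCND3, CCNE1 and CDKN1B all neighbours in the order overlapped, over ranges of means of 81.6 to 90.9, 9.87 to 13.2 and 89.0 to 96.3 CPM.

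Over the 18 libraries, which share groups, log2 CPM of CCNE2 and CDK2 correlated at r = 0.976, of CDK4 and CDC25A at 0.962 and of CCND1 and CDC25A at 0.959. CDKN1B followed none of the others, its highest correlation being 0.157 with CDKN2C. Among 10720 genes with a mean of at least 5 CPM, the likest genes to CDC25A were CDCA5 (r = 0.994) and TPX2 (0.992), both of mitosis, and those to CCNE2 were ZNF519 (0.991) and FBXO5 (0.989). CDK2 was likest to NEMP1 and BRIP1 (both 0.99), CDKN2C to SAPCD2 (0.99) and LRRC45 (0.983), CDK4 to PHF19 and TYRO3 (both 0.976), and CDK6 to TEX15 (0.935) and SYNE2 (0.923). CCND1 was likest to SYNJ2 (0.981) and to the replication origin subunit ORC1 (0.98), and its lowest correlation was with CDKN1A (-0.989). The values were lower for CCND3 (MRM3, 0.911, and RHEB, 0.883), CCNE1 (POLR1E, 0.864, and LRRC37B, 0.859) and CDKN1B (MNAT1, 0.774, and CTSL, 0.767). These describe 6 groups of 3 libraries, and no p is given.

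Other genes of the pathway were read from a list of 35, of which 34 were tested in all comparisons but that of the compounds in non-induced cells, with 33. On induction in DMSO 2 rose and 14 fell, where 6.01% of all genes rose and 7.77% fell. CDKN1A rose (1.95 ± 0.07, adjusted p = 1.06e-06), and the factors that retinoblastoma protein holds, E2F2 (-1.73 ± 0.09, adjusted p = 1.37e-05) and E2F1 (-1.37 ± 0.10, adjusted p = 5.23e-05), fell. With the p300/CBP compound in induced cells 2 rose and 7 fell, led by CDKN1A (2.75 ± 0.08, adjusted p = 2.34e-07), E2F2 (-1.07 ± 0.11, adjusted p = 0.000902) and E2F1 (-1.04 ± 0.11, adjusted p = 0.00101). Of all genes 2.94% rose and 3.04% fell there. CDKN1A stood at 2332, 2451 and 2386 CPM in that group.

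Without induction, 2 genes of the list rose and 11 fell with the p300/CBP compound, where 3.43% of all genes rose and 6.46% fell. E2F2 fell by 0.90 ± 0.10 (adjusted p = 3.53e-05), E2F1 by 0.72 ± 0.09 (adjusted p = 9.29e-05) and MYBL2, an E2F-responsive factor, by 0.57 ± 0.08 (adjusted p = 0.000153). CDKN1A there read 105, 109 and 100.01 CPM, above the DMSO libraries by 0.20 ± 0.06 (adjusted p = 0.0277), a call that was lost without the second compound library or any 1 DMSO library (adjusted p from 0.0963 to 0.157) and with all 6 groups in 1 fit (0.107). With the PCAF/GCN5 compound 1 gene of the list was called in induced cells, CDKN1A at 829, 806 and 859 CPM (1.20 ± 0.08, adjusted p = 0.00027), and 0 in non-induced cells. Of all genes 0.338% rose and 0.00663% fell with it in induced cells, and 0.00662% and 0.0132% in non-induced cells.

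On induction 6 genes of the list rose and 16 fell with the p300/CBP compound, with CDKN1A at 4.50 ± 0.06, E2F2 at -1.89 ± 0.12 and E2F1 at -1.68 ± 0.11, and 4 rose and 14 fell with the PCAF/GCN5 compound, with 3.13 ± 0.08, -1.77 ± 0.10 and -1.80 ± 0.11 for the same genes. The shares of the list that rose on induction were near those of all genes, which were 6.01% in DMSO, 16.4% with the p300/CBP and 11.4% with the PCAF/GCN5 compound. The shares of the list that fell on induction were above those of all genes, which were 7.77%, 16.2% and 12.5% in the same order. Between compounds in induced cells 1 was higher and 8 were lower with the p300/CBP compound, with CDKN1A at 1.54 ± 0.05, E2F2 at -0.77 ± 0.12 and E2F1 at -0.51 ± 0.12. In non-induced cells 4 were lower, led by E2F2 (-0.64 ± 0.11), E2F1 (-0.63 ± 0.10) and CKS1B (-0.41 ± 0.09), a subunit of the ligase that turns p27 over. Of all genes 1.87% were higher and 2.25% lower between compounds in induced cells, and 0.159% and 0.932% in non-induced cells. The E2F1 call in induced cells was lost without any 1 library but the second of the PCAF/GCN5 compound (adjusted p from 0.0688 to 0.141). In non-induced cells E2F1 was lost without the second library of either compound (0.0821 and 0.145), E2F2 without the second or the third of either (from 0.0539 to 0.155), and CKS1B without any 1 library but the first of the p300/CBP compound (from 0.0540 to 0.231), with all 6 groups in 1 fit (0.132) and with the replicate block (0.0575). The medians of the whole list ranged from -0.16 to 0.00 over the 11 comparisons.

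The authors' deposited table of each compound against DMSO, made with DESeq2, gave 0 members that rose. It had 6 that fell with the p300/CBP compound in induced cells and 4 in non-induced cells, where CCNE1 was at an adjusted p of 0.0576. In the authors' deposited table for the PCAF/GCN5 compound in induced cells 4 fell, CDC25A (-0.46, adjusted p = 0.000302), CDKN2C (-0.46, adjusted p = 0.00145), CCND1 (-0.20, adjusted p = 0.0174) and CDK4 (-0.21, adjusted p = 0.0441). Fits run here on these 2 groups called none of the 4 with edgeR, and 0 members with DESeq2. CDC25A and CDKN2C were called under the 2 other settings named above. Why the deposited calls differ was not tested. The authors' deposited table for non-induced cells with that compound gave 0 calls among the 9 members with an adjusted p.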

How the data were processed

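Total RNA libraries were made with a directional kit, per the labels' protocols, and the submitters' processing notes name StringTie and DESeq2 without versions. The aligner, genome build, annotation and use of strand are not given in the sources used here. The authors deposited 4 tables, each of 1 compound and DMSO in 1 state, with raw counts per gene for 6 libraries. They also deposited counts scaled by DESeq2 as a signal, log2 fold changes with errors, a Wald statistic as a score, and p-values. Tables of induced cells give the deposited log2 fold change as DMSO over compound, and their signs were reversed here. In 1 deposited table the line of ANK2 is split, so ANK2 was left out and the DMSO counts, equal in both tables of non-induced cells, were taken from the other. Of 58515 gene identifiers found in GENCODE 29, 46551 (79.6%) had the same GRCh38 position, 5 of the 10 members among them.

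Each of 9 comparisons of 2 groups, and 2 interactions over 4 groups, used only the libraries of those groups. The quasi-likelihood test of edgeR 4.0.16 (R 4.3.3) was run 2-sided after TMM scaling, filterByExpr and glmQLFit, with Benjamini-Hochberg adjustment over all tested genes and calls at an adjusted p below 0.05. The SE is the log2 fold change divided by the square root of F, and a 95% interval is 1.96 SE on each side. This multiplier is that of a normal distribution, so the intervals are narrower than the F test would give. A count of 0 allows up to 3 counts, 0.103 CPM in the deepest and 0.331 CPM in the shallowest library, for counting error only. The scripts were tested on simulated data. Alternatives were RLE size factors in place of TMM, no filter on low counts, DESeq2 1.42.0, all 6 groups in 1 fit, a replicate block, and leaving out each library. Named were all 10 members in every comparison and, of the 35 other pathway genes, the 3 called ones with the largest change, with CDKN1A throughout. A further gene is not reported here. For each member the 2 genes of highest Pearson r of log2 CPM (prior count 2) were named, and genes overlapping its exons. Members and lists were chosen with earlier results of these data known.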

Additional observations from a re-analysis of the deposited data

Results flagged for a closer look

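The response to a compound differed between induced and non-induced cells, by edgeR's test of that difference, for 1 member and 2 other inhibitor genes of the pathway. CCND1 responded to the p300/CBP compound by -0.46 more on the log2 scale in induced cells (adjusted p = 0.016), and every one of its induced compound libraries lay below every induced DMSO library, while the non-induced groups overlapped. CDKN1A responded to the p300/CBP compound by 2.56 more (adjusted p = 8.99e-11) and to the PCAF/GCN5 compound by 1.17 more (adjusted p = 2.7e-05) in induced cells. For CDKN2B, which encodes the INK4 inhibitor p15, the response to the p300/CBP compound differed by -0.68 between states, induced minus non-induced (adjusted p = 0.0118). CDKN2B read 45.6, 47.7 and 51.5 CPM with DMSO and 57.3, 60.9 and 63.2 CPM with the compound in non-induced cells, against 53.9, 42.7 and 56.0 and then 38.8, 38.1 and 41.3 CPM in induced cells. The CDKN2B call was lost without the second induced library of the compound (-0.66, adjusted p = 0.0510) or the first non-induced DMSO library (-0.65, adjusted p = 0.0562). Groups of 3 libraries were not screened for single outlying values.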

How the results depend on the processing

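Of 1330 results for single members under the alternatives, 1263 stayed on their side of the threshold, 43 were no longer called and 24 were newly called. Of those called in either setting 0 changed direction, while some values near 0 that were not called changed sign, such as that of CDK2 in induced cells under the PCAF/GCN5 compound (-0.08 to 0.02). Counts of called genes moved more. With the p300/CBP compound in induced cells 898 genes were called, 2106 with no filter, 2214 with all 6 groups in 1 fit and 263 to 3234 leaving out a library (members, 2 to 6). In induced cells the PCAF/GCN5 compound gave 52 calls, 541 with no filter, 107 with DESeq2, 352 with all 6 groups and 29 to 114 leaving out a library, and the members called went from 0 to 2 with no filter and to 2 with all 6 groups. In non-induced cells the p300/CBP compound gave 1478 calls, 615 with all 6 groups and 527 to 2384 leaving out a library, and the PCAF/GCN5 compound 3, then 48 with no filter, 5 with DESeq2, 0 with all 6 groups and 0 to 17. Induction in DMSO gave 2075 calls, 3455 with all 6 groups and 869 to 5001 leaving out a library (members, 4 to 8). Between compounds in induced cells the counts were 617, 394 with all 6 groups and 236 to 1098 (members, 2 to 5), and in non-induced cells 165, 594 with no filter, 386 with DESeq2 and 1 to 310. There 1 member was called, 4 with no filter, 2 with DESeq2, 2 with all 6 groups and 0 to 3 leaving out a library. The interaction gave 200 calls for the p300/CBP compound, 416 with no filter and 123 to 432 (members, 0 to 1), and for the PCAF/GCN5 compound 11, then 258 with no filter, 45 with DESeq2, 38 with all 6 groups and 8 to 24. The causes were not tested.

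The replicate numbers showed no pairing in a check of correlations between libraries. In 0 of 15 pairs of groups was every same-number correlation over 0.1 (r from -0.352 to 0.357). In 12 of 45 cases a library correlated best with its own number, out of 3 numbers each time. With only 3 libraries per group, the check cannot show that no batch was shared. With the number as a replicate block, the p300/CBP compound in induced cells gave 530 calls, with CDK4 (adjusted p = 0.0592) and CDKN2C (0.0525) not called. The compounds in non-induced cells then differed in 46 genes and 0 members, CDC25A being at 0.0614, and the PCAF/GCN5 compound in non-induced cells gave 14 calls. On induction in DMSO the block called CDKN2C (0.0425).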
